A study of Mus musculus with 6 samples.

Results

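Hepatoblast transcripts are here 32 genes of the fetal liver parenchyma, measured in 6 RNA-seq libraries of common myeloid progenitors (CMPs). The 32 were taken by name, from the rows of the gene tables whose Ensembl identifiers map to the listed symbols, out of 24815 genes in each table. All libraries came from E13.5 fetal livers of C57BL/6 mice, with cells sorted by flow cytometry as positive for c-kit and CD34, low for the Fc receptor and negative for Sca-1, TER-119, Gr-1, B220, CD48, CD41, CD8, CD5, CD4 and CD3. The wild type group held the libraries A, F and L, and the group -77-/- held the libraries C, D and Q, called the mutants below, whose 2 alleles lack the -77 enhancer of Gata2, a gene for a zinc finger factor of blood stem and progenitor cells. The deletion is in the germ line, so it is not limited to blood cells. The labels do not say whether a library is 1 fetus or several pooled, so the spread behind each p-value is that between libraries and may be technical.

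The mid-gestation liver is a blood-forming organ as well as an epithelial one, and blood progenitors lie among hepatoblasts, the bipotent precursors of hepatocytes and bile duct cells. Hepatoblasts already secrete the main plasma proteins (albumin and its fetal relative alpha-fetoprotein, apolipoproteins, carriers, protease inhibitors and clotting factors) under liver-enriched transcription factors of the HNF4, FOXA and C/EBP families.

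Most of the 32 liver parenchymal transcripts were present in all 6 libraries, many at low levels. Others had no count in some libraries, and Fetub had none in any. Most of the 32 genes followed one order of libraries, lowest in wild type L and highest in mutant Q. Albumin ran from 3.32 to 217 counts-per-million (CPM) across the libraries. Mutant means were higher than wild type means for 22 of the 24 members with enough counts to test, but 0 of the 24 passed edgeR's test at an adjusted p of 0.05. Mutants C, D and Q differed from one another several-fold in many of the same genes. Apoe was lower in all 3 mutants than in any wild type library, and Hnf4a and Dlk1 lay at similar levels in both groups. In bulk RNA, fewer cells of a type and less RNA per cell cannot be told apart.

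On the length-scaled TPM, the highest wild type means were those of Apoe (203 ± 50.4), Mt1 (92.3 ± 19.5) and Dlk1 (59.9 ± 11.9), followed by Apoc1 (22.1), Trf (16.6), Afp (14.9 ± 11.8) and Alb (14.7 ± 12.9; SD, n = 3). From Apoc1 downwards these neighbours lay within the spread of Afp and Alb over the wild type libraries.

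Each library held 14473913 to 30596279 expected counts, deepest in mutant Q. CPM values are over the counts of the tested genes, scaled by trimmed mean of M-values (TMM) factors, and 3 counts, the limit that a count of 0 allows, equalled 0.0930 CPM in mutant Q and 0.330 CPM in mutant C. Mutant C stood apart: 21.8% of its counts fell on ribosomal protein genes against 6.82% to 9.21% in the other 5 libraries, its TMM factor was 0.614, and the mean length of its transcripts, weighted by counts, was 1781 bases against 2834 to 3124 bases. Gata2 measured 78.6, 57.4 and 63.9 CPM in wild type A, F and L and 8.92, 16.5 and 17.8 CPM in mutants C, D and Q. The mutants were all below the wild types (log2 change -2.20, adjusted p = 0.068 by edgeR's quasi-likelihood test). The sorted cell type was evident in myeloid progenitor transcripts, with Mpo at 1691 to 3131 CPM, Cd34 at 685 to 1254 CPM and Kit at 102 to 337 CPM, lowest in mutant C.

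The upstream sequences of 4 plasma protein genes are shown first, since these genes varied together between libraries. They are the 250 bases before the RefSeq start, read 5′ to 3′ on the strand of the gene in build GRCm38.p6, with the letters GTTAAT, a short run that all 4 windows hold, in capitals. The windows are chr5:90460620-90460869 (plus strand) for Alb, chr5:90490464-90490713 (plus strand) for Afp, chr12:103863620-103863869 (minus strand) for Serpina1a and chr12:103738190-103738439 (minus strand) for Serpina1b.
Alb: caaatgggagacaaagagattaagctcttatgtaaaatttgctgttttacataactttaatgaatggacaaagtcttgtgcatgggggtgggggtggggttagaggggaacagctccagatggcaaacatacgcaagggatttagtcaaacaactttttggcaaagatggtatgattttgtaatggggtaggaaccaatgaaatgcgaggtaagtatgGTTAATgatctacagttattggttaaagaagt
Afp: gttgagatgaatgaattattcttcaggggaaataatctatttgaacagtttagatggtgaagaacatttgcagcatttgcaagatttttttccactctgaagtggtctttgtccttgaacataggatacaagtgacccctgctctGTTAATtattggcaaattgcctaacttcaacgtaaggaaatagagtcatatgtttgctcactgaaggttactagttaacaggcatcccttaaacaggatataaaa
Serpina1a: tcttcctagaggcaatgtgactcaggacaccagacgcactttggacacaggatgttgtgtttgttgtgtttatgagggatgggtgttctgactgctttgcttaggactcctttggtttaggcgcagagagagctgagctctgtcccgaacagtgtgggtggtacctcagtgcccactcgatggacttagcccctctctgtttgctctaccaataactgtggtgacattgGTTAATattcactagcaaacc
Serpina1b: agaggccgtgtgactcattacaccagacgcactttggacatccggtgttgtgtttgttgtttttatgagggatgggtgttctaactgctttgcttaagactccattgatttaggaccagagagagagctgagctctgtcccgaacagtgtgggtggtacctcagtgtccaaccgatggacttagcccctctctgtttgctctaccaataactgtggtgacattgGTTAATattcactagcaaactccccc
The capitals began 32 bases before the start in Alb, 105 in Afp, 21 in Serpina1a and 26 in Serpina1b. Promoters were matched for 27 of the 32 members, all but Apoc1, Apoc3, Ttr, Serpina6 and Trf. Searched on both strands, GTTAAT was in a window of 12 of the 27 member genes (Alb, Afp, Apoe, Fabp1, Fga, Fgb, Hnf4a, Serpina1a, Serpina1b, Serpina1c, Serpina1d and Vtn). It was in 6.43% of all 32851 RefSeq windows. TTGCNNAA, a core of C/EBP sites, was in a window of 12 of the 27 genes and in 9.56% of all windows. TATAAA, the TATA box, was in a window of 8 of the 27 genes and in 12.4% of all windows. The member shares count genes, each by any of its windows, and the percentages count single windows, so they are unlike measures. The 4 Serpina1 windows were 84.3% to 91.4% identical to one another, so they do not count as separate sequences. These matches describe the letters in the windows and not binding.

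Alb and Afp, neighbouring genes on chromosome 5 (mm10, GENCODE M21 positions 90460897 to 90476602 and 90490737 to 90508907), encode the main plasma protein of the adult and its fetal counterpart. Alb measured 26.8, 13.3 and 3.32 CPM in wild type A, F and L and 60.8, 23.2 and 217 CPM in mutants C, D and Q. Mutant D lay below wild type A, so the groups overlapped. Afp measured 26.5, 14.1 and 4.62 CPM in the wild types and 64.4, 30.3 and 237 CPM in the mutants. The lowest mutant, D, lay just above the highest wild type, A, so the groups did not overlap in CPM, but in transcripts-per-million (TPM) mutant C, at 20.15, lay below wild type A, at 27.60. The mutant mean of Alb was 100.4 ± 103 CPM against 14.5 ± 11.8 CPM (SD, n = 3 libraries each), a fitted 6.92-fold difference (log2 2.79, SE 1.02, adjusted p = 0.58 by edgeR). For Afp the means were 111 ± 111 and 15.1 ± 11.0 CPM, a 7.32-fold difference (log2 2.87, SE 0.94, adjusted p = 0.58 by edgeR). Without mutant C the adjusted p-values were 0.31 for Alb and 0.26 for Afp in edgeR. Mutants Q and D, of the same genotype, differed 9.35-fold in Alb and 7.84-fold in Afp, which is as large as the difference between the groups.

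**Figure D1:**
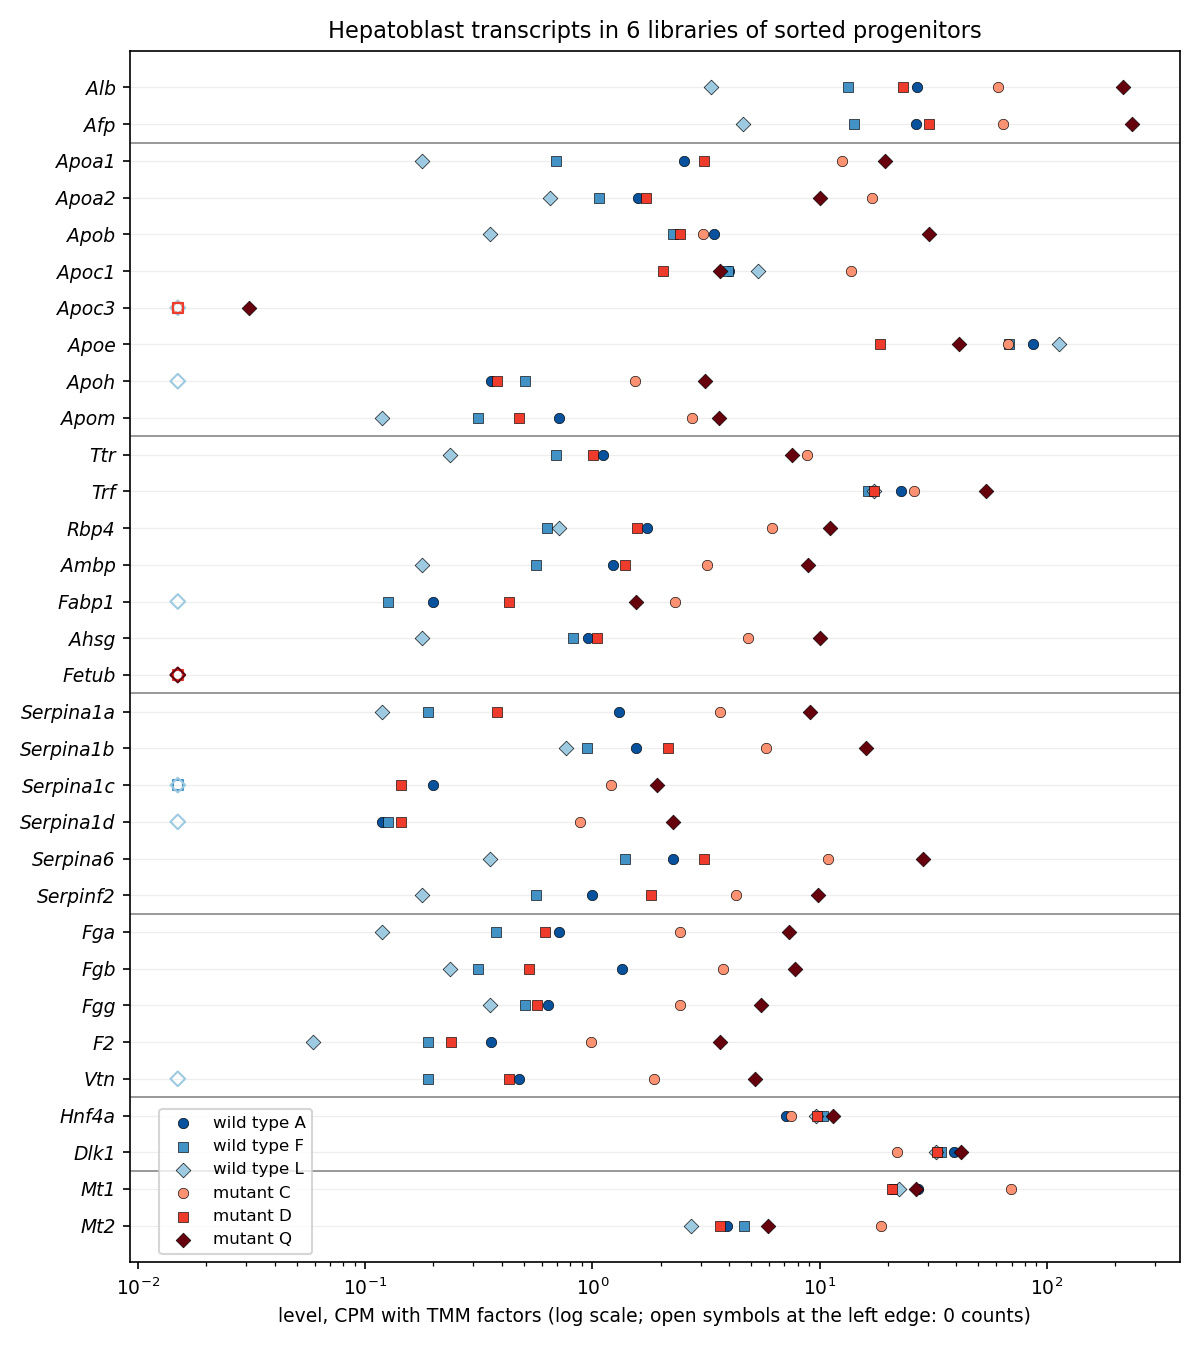
CPM on a log axis for the 32 members, ordered by role, with 1 point per library for wild type A, F and L and mutants C, D and Q and open symbols at the left edge for 0 counts. Mutant Q gives the highest point for 24 of the 32 members, and Apoe is the member with all 3 mutants below the wild types.

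Between wild type L and mutant Q, Alb differed 65.5-fold and Afp 51.4-fold, while their proportion to each other varied little. Alb took 50.3% (95% Clopper-Pearson interval 47.5 to 53.0) of the summed Alb and Afp counts in wild type A, 48.5% (43.7 to 53.3) in F and 41.8% (33.3 to 50.6) in L. In the mutants the share was 48.5% (45.6 to 51.5) in C, 43.4% (40.5 to 46.4) in D and 47.8% (47.0 to 48.6) in Q. Only the intervals of mutant D against wild type A and mutant Q were apart, with D lower. These intervals cover counting error only, since reads without molecular identifiers are not independent molecules. Sums of the pair were 7.93 CPM in wild type L, with 56 and 78 counts behind Alb and Afp, and 53.2 CPM in wild type A, close to the 53.5 CPM of mutant D.

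**Figure D2:**
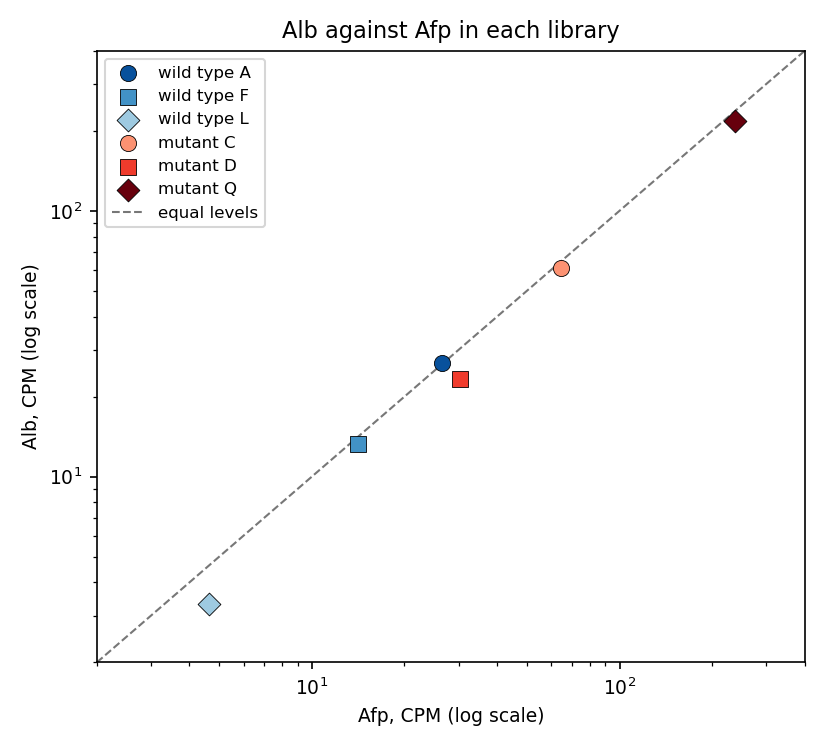
Alb (vertical) against Afp (horizontal) in CPM on log axes, 1 point per library, with wild types and mutants in separate colours. The 6 libraries lie near the line of equal levels from wild type L (3.32 and 4.62 CPM) to mutant Q (217 and 237 CPM).

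The protease inhibitors showed the same order of libraries. Serpina6, corticosteroid-binding globulin, measured 2.27, 1.39 and 0.355 CPM in wild type A, F and L and 10.9, 3.11 and 28.5 CPM in mutants C, D and Q. All 3 mutants exceeded all 3 wild types, in CPM and in TPM, and the fitted difference was 10.4-fold (log2 3.37, SE 0.94, adjusted p = 0.58 by edgeR). Serpinf2, the plasmin inhibitor alpha-2-antiplasmin, measured 0.994, 0.567 and 0.178 CPM in the wild types and 4.30, 1.82 and 9.86 CPM in the mutants. Its groups did not overlap on either scale, and its adjusted p of 0.55 (edgeR, log2 3.15, SE 0.80) was the smallest of the 24 tested members.

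The Serpina1 genes encode alpha-1-antitrypsin, the main inhibitor of neutrophil elastase, and are near-identical copies on chromosome 12, so the division of reads among them is uncertain. Serpina1b was the most abundant copy, at 1.55, 0.946 and 0.770 CPM in the wild types and 5.84, 2.15 and 16.03 CPM in the mutants, with no overlap on either scale (log2 2.86, SE 0.77, adjusted p = 0.58 by edgeR). Summing Serpina1a, Serpina1b, Serpina1c and Serpina1d avoids the division among these 4 copies only. The sum was 3.18, 1.26 and 0.888 CPM in wild type A, F and L and 11.6, 2.82 and 29.3 CPM in mutants C, D and Q. Mutant D lay below wild type A, so the summed groups overlapped (1.78 ± 1.23 against 14.5 ± 13.47 CPM, two-sided exact permutation p = 0.2, where 0.1 is the smallest that 3 against 3 libraries allow). Serpina1c and Serpina1d had too few counts to be tested singly.

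The apolipoproteins, which carry lipids in plasma, did not move as one group. Apoa1, the main protein of high-density lipoprotein, measured 2.54, 0.694 and 0.178 CPM in the wild types and 12.6, 3.11 and 19.3 CPM in the mutants. The mutants lay above the wild types on both scales (log2 3.28, SE 0.98, adjusted p = 0.58 by edgeR). Apoa2, its partner in the same particles, measured 1.59, 1.07 and 0.651 CPM in the wild types and 17.0, 1.72 and 10.1 CPM in the mutants, and was highest in C rather than Q (log2 3.06, SE 0.83). Apob, the structural protein of low-density lipoprotein and the longest member transcript at 8747 bases, measured 3.42, 2.27 and 0.355 CPM in the wild types and 3.08, 2.44 and 30.2 CPM in the mutants. Only mutant Q was above the wild type range for Apob. Apom and Apoh were lowest in wild type L and highest in mutant Q, at 3.60 and 3.13 CPM, and Apoc3 had 1 count in Q and 0 in the other 5 libraries.

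Apoe and Apoc1, which lie side by side on chromosome 7, differed from that order. Apoe, a ligand of lipoprotein receptors that macrophages also make, measured 87.4, 68.5 and 113 CPM in wild type A, F and L and 67.7, 18.5 and 41.3 CPM in mutants C, D and Q. Every mutant lay below every wild type, with mutant C only just under wild type F. Wild type L, the lowest library for most members, was the highest for Apoe. The means were 89.7 ± 22.4 and 42.5 ± 24.6 CPM, 2.12-fold lower in the mutants (log2 -1.08, SE 0.47, adjusted p = 0.58 by edgeR), and without mutant C the log2 difference was -1.58 with an edgeR adjusted p of 0.13, the smallest of the members in that fit. In TPM the groups were also separate, at 148.52 to 247.77 in the wild types and 40.50 to 80.06 in the mutants. Apoc1, a small inhibitor of lipoprotein uptake, measured 3.98, 3.97 and 5.39 CPM in the wild types and 13.8, 2.06 and 3.66 CPM in the mutants, so that C was highest and D and Q were below the wild types. Its log2 difference was 0.50 with all libraries and -0.62 without mutant C, a change of sign.

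Among the carrier proteins, Ttr (transthyretin, a carrier of thyroid hormone and of retinol-binding protein) measured 1.11, 0.694 and 0.237 CPM in the wild types and 8.81, 1.004 and 7.56 CPM in the mutants. Mutant D lay below wild type A (log2 3.02, SE 0.89). Rbp4, the retinol-binding protein itself, measured 1.75, 0.631 and 0.710 CPM and then 6.17, 1.58 and 11.1 CPM, again with D within the wild type range. Ahsg, the mineral-binding protein fetuin-A, measured 0.954, 0.820 and 0.178 CPM in the wild types and 4.85, 1.05 and 10.01 CPM in the mutants, just without overlap in CPM (log2 2.999, SE 0.91). Ambp, the precursor of alpha-1-microglobulin and bikunin, also did not overlap in CPM (0.178 to 1.23 against 1.39 to 8.87). Trf, transferrin, the plasma iron carrier, was the most even of this role at 22.8, 16.3 and 17.4 CPM in the wild types and 25.99, 17.4 and 53.9 CPM in the mutants. Mutant Q was highest and C was also above the wild types in CPM, but in TPM C, at 8.82, lay below them. Fabp1, the fatty acid-binding protein of hepatocytes, reached 2.31 CPM in C, and Fetub had no count in any library.

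Clotting and adhesion genes were the least abundant role, with a summed wild type mean of 2.26 TPM. The 3 chains of fibrinogen, the clot protein, are encoded together on chromosome 3. Fga measured 0.716, 0.378 and 0.118 CPM in the wild types and 2.42, 0.621 and 7.35 CPM in the mutants, and Fgb measured 1.35, 0.315 and 0.237 CPM and then 3.74, 0.526 and 7.81 CPM. Fgg stood between 0.355 and 0.636 CPM in the wild types and at 2.42, 0.574 and 5.52 CPM in the mutants. In each chain mutant D lay within the wild type range and mutant Q was highest. F2 (prothrombin) and Vtn (vitronectin) reached 3.66 and 5.18 CPM in Q and were too low elsewhere to be tested.

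Hnf4a, the nuclear receptor that drives many of these genes in hepatocytes, did not share their pattern. It measured 7.12, 10.4 and 9.65 CPM in wild type A, F and L and 7.49, 9.70 and 11.5 CPM in mutants C, D and Q. The groups overlapped throughout (9.06 ± 1.72 against 9.55 ± 1.99 CPM, log2 0.09, SE 0.24, adjusted p = 0.84 by edgeR), and mutants Q and D differed only 1.18-fold, where Alb differed 9.35-fold. Dlk1, a surface protein used to isolate hepatoblasts, measured 39.0, 34.4 and 32.4 CPM in the wild types and 21.9, 32.8 and 42.0 CPM in the mutants (log2 -0.12, SE 0.25, adjusted p = 0.78 by edgeR). Only mutant C was below the wild types, and without it the log2 difference was 0.08. Among the other transcription factors of the liver, Foxa1, Foxa2 and Nr1h4 had at most 3 counts in every library, and Foxa3 reached 0.496 CPM, in mutant Q. Nr0b2, the repressor SHP of bile acid synthesis, measured 1.87, 1.45 and 2.07 CPM in the wild types and 5.73, 2.72 and 3.01 CPM in the mutants. All 3 mutants lay above the wild types, with C highest (log2 1.05, SE 0.36, adjusted p = 0.58 by edgeR). The list held 13 factors with Hnf4a, of which Hnf4a and Nr0b2 had enough counts to test, and edgeR called 0.

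The metallothioneins Mt1 and Mt2, which bind zinc and copper and are abundant in fetal liver, were highest in mutant C. Mt1 measured 27.0, 21.2 and 22.3 CPM in the wild types and 69.8, 20.8 and 26.6 CPM in the mutants, and Mt2 measured 3.90, 4.67 and 2.72 CPM and then 18.6, 3.63 and 5.92 CPM. Without C the log2 differences were 0.00 for Mt1 and 0.35 for Mt2, against 0.72 (SE 0.46) and 1.28 (SE 0.62) with it. Summed, the pair was 1.78 times the wild type level in the mutants by CPM and 0.972 times by TPM, so the direction turned with the scale. The median log2 ratio of all tested genes moved too, from -0.02 in CPM to -0.48 in TPM. Both are short transcripts, at 540 and 556 bases.

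Transcript length ran with the difference between mutants C and Q in most members. Short members were high in C relative to Q, with a ratio of 3.76 for Apoc1 (431 bases), 2.62 for Mt1 and 3.14 for Mt2, while Apob gave 0.102. Across the 28 members with enough counts, Spearman's rho between length and the log2 ratio of C to Q was -0.78, and across all 11264 genes counted in both libraries it was also -0.78. These are descriptions across genes, which share the same 2 libraries and are not independent. The part of length in the order of C and Q among the members was not tested.

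**Figure D3:**
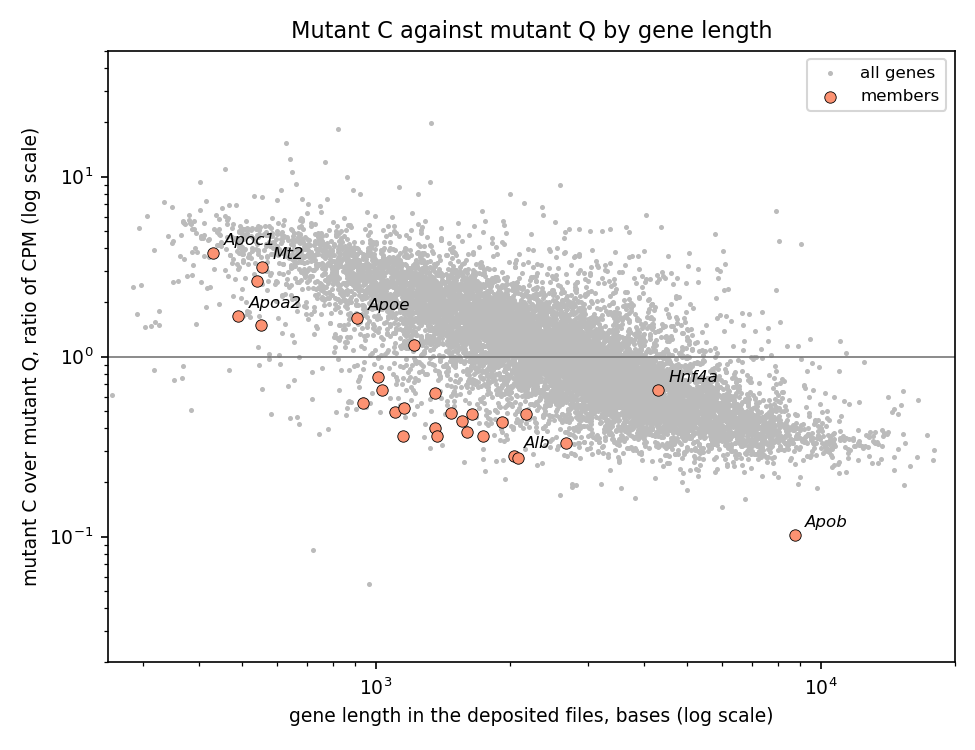
Ratio of mutant C to mutant Q in CPM (log axis) against gene length in the deposited tables in bases (log axis), with all genes in grey, the members coloured and 7 of them named. The members run from Apoc1 at 3.76 to Apob at 0.102 with a slope like that of all genes, and most lie toward the lower edge of the grey points of similar length.

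Of the 32 members, 24 had enough counts to enter the fit across all genes, and the 8 that did not were Apoc3, Apoh, Fabp1, Fetub, Serpina1c, Serpina1d, F2 and Vtn. All 3 wild type libraries passed the count filter for 12 of the 24, 2 of them for 7 and 1 of them for 5, so that part of the list was admitted mainly through libraries where it was high, and the counts here are a description. EdgeR called 0 of the 24 (0.155% of all 12222 tested genes were called), and 15 of the 24 had an unadjusted p under 0.05 (4.80% of all genes). Their median log2 difference was 2.65, with -0.02 over all genes, and it was 1.67 without mutant Q. Without mutant C edgeR called 0 of 26 members (0.840% of genes), with 20 at an unadjusted p under 0.05 (10.4% of genes), of which 19 were higher in the mutants (4.34% of genes). Limma-voom also called 0 (0.262% of genes). DESeq2 called 10 of 29 members, all higher in the mutants (0.744% of genes): Afp, Apoa1, Apoa2, Ttr, Rbp4, Fabp1, Ahsg, Serpina1b, Serpina6 and Serpinf2, with the smallest adjusted p, 0.0061, for Serpinf2.

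The groups did not overlap in CPM for 9 of the 24. The mutants were above for 8 (Afp, Apoa1, Apoa2, Ambp, Ahsg, Serpina1b, Serpina6 and Serpinf2, where 10.6% of all tested genes were above) and below for Apoe (11.4% of genes). In TPM they were above for 4 (Apoa1, Serpina1b, Serpina6 and Serpinf2, with 1.82% of genes) and below for Apoe (24.0% of genes). The TPM scale moved the median of all genes: the log2 ratio of mutant to wild type means was -0.48 in TPM and -0.02 in CPM, and the members' median was 2.63 above that of all genes in TPM and 2.74 above it in CPM. Without wild type A, the highest wild type for most members, 18 of the 24 did not overlap in CPM in either direction (26.9% of all tested genes). Without mutant D 19 did not (45.3% of genes), with Apoe the 1 below in both cases. Leaving out wild type F, wild type L, mutant C or mutant Q instead gave 9, 9, 10 and 9 members.

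Summed over the 32 genes, the level was 268, 199 and 216 CPM in wild type A, F and L and 451, 182 and 842 CPM in mutants C, D and Q. The sum was 0.0199% of all counts in mutant D and 0.0888% in mutant Q. Mutant D was the lowest of all 6 libraries. The means were 228 ± 36.0 and 492 ± 332 CPM, 2.16-fold higher in the mutants (two-sided exact permutation p = 0.4). In TPM the ratio of the means was 1.12 (exact permutation p = 1, taken on log2 sums and not on this ratio). Without mutant Q it was 1.39 in CPM and 0.657 in TPM, below 1. The 28 genes other than Apoe, Dlk1, Mt1 and Mt2, a division made after their values were seen, gave 111, 70.6 and 45.2 CPM in the wild types and 273, 106 and 726 CPM in the mutants, with D just under A. Their mutant mean was 4.87 times that of the wild types (exact permutation p = 0.2), and 2.51 times without mutant Q. Across those 28 genes, the Spearman correlation of TPM between any 2 libraries lay between 0.765 (wild type L and mutant C) and 0.961 (wild type F and mutant D), as a description over 15 pairs.

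For many members the spread within the mutants was as wide as the difference between genotypes. Mutant Q was the highest library for 24 members, mutant C for 6 (Apoa2, Apoc1, Ttr, Fabp1, Mt1 and Mt2) and wild type L for Apoe. The share of all genes highest in each library is not given, so these counts and those of the lists below are a description. Wild type L was the lowest or tied lowest for 23 of the 30 members counted more than once, and the 7 others were Apoc1, Apoe, Trf, Rbp4, Hnf4a, Dlk1 and Mt1. Among 23 members counted at least 10 times in both mutants D and Q, 16 differed by 4-fold or more, all higher in Q, where 0.357% of 12055 genes differed as much in either direction. The median ratio of the higher to the lower of D and Q was 7.03 for these members and 1.09 for all genes. The widest of these, 14.9-fold for Fgb and 12.4-fold for Apob, exceeded the largest fitted difference between the groups, 10.4-fold for Serpina6. The 7 members below 4-fold were Apoc1, Apoe, Trf, Hnf4a, Dlk1, Mt1 and Mt2. Among the wild types, Alb (8.07-fold) and Afp (5.73-fold) were the 2 of 12 counted members past 4-fold between highest and lowest, where 0.426% of 11724 genes were. The 4-fold level and the minimum of 10 counts were set after the data were seen.

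**Figure D4:**
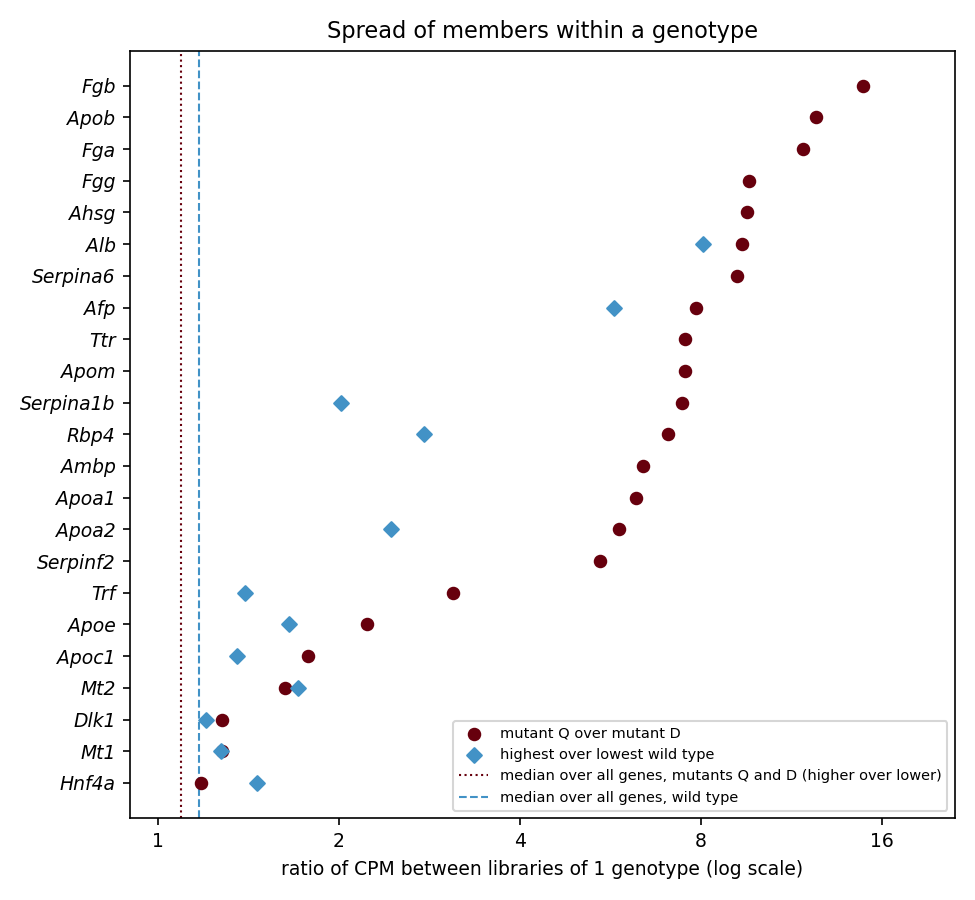
Fold difference between libraries of 1 genotype on a log axis, for the 23 counted members, as mutant Q over D (circles) and highest over lowest wild type (diamonds), with the medians of all genes as vertical lines. The members' median between mutants D and Q is 7.03 against 1.09 for all genes, and Alb and Afp are the members past 4-fold among the wild types.

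Other liver genes followed the members' order of libraries only in part. Of 35 further plasma protein genes 31 were counted, and 18 of these were highest in mutant Q. EdgeR tested 9 and called 0, with 5 at an unadjusted p under 0.05 (4.80% of all tested genes): Itih2, Kng1, Plg and Serpind1 were higher in the mutants and F5 lower. Itih2, a chain that stabilises hyaluronan, measured 2.07, 1.51 and 0.414 CPM in the wild types and 4.30, 3.06 and 22.2 CPM in the mutants. Hp, haptoglobin, the haemoglobin scavenger that granulocyte precursors also make, did not follow it, at 31.8, 24.0 and 24.7 CPM in the wild types and 57.3, 21.0 and 15.3 CPM in the mutants. F5, clotting factor V, measured 7.55, 8.20 and 8.05 CPM in the wild types and 1.76, 4.25 and 5.80 CPM in the mutants, all below the wild types (log2 -0.97, SE 0.39, adjusted p = 0.58 by edgeR). F10, clotting factor X, was also lower on average (log2 -0.74, SE 0.33), with mutant C just above the lowest wild type. Ass1, a urea cycle enzyme, was even across the libraries at 41.0 to 47.7 CPM. Mttp, which loads lipid onto Apob, had a log2 difference of 0.01 (SE 0.33) between the groups. Its libraries ran from 2.20 CPM in mutant C to 5.02 CPM in mutant Q. Of 37 genes at least 4-fold higher in mutant Q than in D, 16 were members and 8 others were liver list genes, among them Apoc2, C3, Itih2, Itih3, Kng1, Plg and Serpind1. Of 22 liver metabolic genes 4 were tested and 0 called, with Tat, Asgr1 and G6pc at 0 counts in every library. Of 12 genes of the hepatoblast surface and the bile duct, Dlk1 included, 7 were tested and 0 called. Gpc3, a surface proteoglycan, was lower in all 3 mutants (13.3 to 19.2 CPM) than in any wild type (20.7 to 23.5 CPM), and Krt19 and Sox9, which mark bile duct cells, had no count. Of 8 metallothionein genes and their regulators, Mt1 and Mt2 included, 6 were tested and 0 called. At an unadjusted p under 0.05 edgeR gave 1 liver transcription factor, 2 metabolic genes, 2 surface genes and 1 metallothionein-related gene.

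Markers of other cells of the fetal liver are given for their whole lists beside these values. Liver endothelium genes summed to 116 to 133 CPM in the wild types and 135 to 283 CPM in the mutants (8 of 10 tested, 0 called), highest in mutant C, mostly through Egfl7. The other 9 endothelial genes summed to 19.9 to 24.4 CPM in the wild types and 12.7, 14.7 and 20.02 CPM in mutants C, D and Q. Of the 10 endothelial genes, 6 were highest in mutant Q: Lyve1 (1.58 CPM against 0.0631 to 0.771 CPM elsewhere), Stab1, Stab2, Oit3, Cdh5 and Esam. Clec4g, like Egfl7, was highest in C. Kdr (log2 -1.20, SE 0.58) and Tek (log2 -0.98, SE 0.24, adjusted p = 0.53 by edgeR) were lower in every mutant than in any wild type. Stellate and mesenchymal genes summed to 27.2 to 31.3 and 11.2 to 26.2 CPM (1 of 10 tested, 0 called), nearly all of it Pdgfrb. Without Pdgfrb the sum was 0.716, 0.757 and 1.24 CPM in wild type A, F and L and 0.330, 0.669 and 3.87 CPM in mutants C, D and Q. The 0.330 CPM of mutant C equalled 3 counts. Of the 10 genes 8 were highest in mutant Q, the library highest for most members and the deepest. Among them Col3a1 had 41 counts in Q and 0 to 5 in the other libraries. The others had few counts in Q, from 2 for Des to 24 for Col1a2. Macrophage genes summed to 9.08 to 10.6 and 11.7 to 20.04 CPM (4 of 12 tested, 0 called), again highest in C, with Vsig4 at 0. Without Adgre1 the sum was 4.65, 4.04 and 3.91 CPM in wild type A, F and L and 10.7, 4.73 and 7.94 CPM in mutants C, D and Q. Mesothelium genes summed to 3.86 to 6.22 and 5.07 to 7.13 CPM (1 of 5 tested, 0 called), with Msln and Krt14 at 0. Nearly all of it was Lrrn4, without which the sum was 0.118 CPM in wild type L and 0 in every other library. Erythroblast genes summed to 560 to 1007 CPM in the wild types and 2274, 428 and 413 CPM in mutants C, D and Q (11 of 12 tested, 0 called). Mutant C was above the wild types and mutants D and Q were below them. The 15 myeloid progenitor genes, all tested and 0 called, summed to 5118 to 6130 and 5369 to 5540 CPM. At an unadjusted p under 0.05 edgeR gave 4 erythroblast genes, 1 endothelial and 1 myeloid progenitor gene, and 0 of the stellate, macrophage and mesothelium lists. Without mutant C edgeR called 1 erythroblast gene, Rhag, and 1 progenitor gene, Myb, both lower in the mutants. In that fit 11 of 12 erythroblast and 5 of 15 progenitor genes had an unadjusted p under 0.05 (10.4% of all genes). The same held for 2 endothelial, 1 stellate, 1 macrophage and 0 mesothelium genes. The part of any of these cells, or of mutant C's RNA, in the member levels was not tested.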

How the data were processed

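RNA was taken from CMPs of wild type and -77-/- fetal livers, 3 libraries each. Per the submitters' processing notes, the tools were CASAVA 1.8.2, Bowtie 1.1.1 and RSEM 1.2.18 with build mm10. The annotation release and strand setting were not stated there. The deposited tables hold RSEM expected counts and TPM per gene, 24815 rows each, and depth is the sum of expected counts. Expected counts were rounded and fitted across all 6 libraries with edgeR 4.0.16 (R 4.3.3): TMM factors, filterByExpr with a minimum count of 10, quasi-likelihood test, Benjamini-Hochberg adjustment over 12222 genes, threshold 0.05. The script was tested on simulated data. Sums over genes were compared by two-sided exact permutation tests on log2 of the sums, while the ratios printed beside them are of plain means. Alternatives were DESeq2 1.42.0 with its size factors, limma 3.58.1 (voom), no filter, CPM without TMM factors, deposited TPM and each library left out. Positions are from GENCODE M21 and promoters from RefSeq (GRCm38.p6). Every member is named. The members and all lists were chosen with earlier results of these data known. Some genes of the wider lists are not reported here.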

Additional observations from a re-analysis of the deposited data

How the results depend on the processing

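With all libraries edgeR called 19 genes. DESeq2 called 124, limma-voom 32 and edgeR without the count filter 36, and leaving out 1 library gave 0 to 106, with 106 without mutant C and 0 without any other single library. Of the members, 0 were called by edgeR and 10 by DESeq2, and 0 under the remaining alternatives including each left-out library. The members' median log2 difference lay between 1.67 (without mutant Q) and 3.44 (without wild type A). The log2 ratio of the summed level of all 32 genes was 1.11, and between 0.47 and 1.505 with 1 library left out. Of 240 member values under alternatives, 226 kept direction and side of the threshold, 9 gained a call under DESeq2 and 5, in 3 members, changed sign: Apoc1 was -0.10 by limma-voom and -0.62 to 0.94 with 1 library left out, Hnf4a -0.063 to 0.23 and Dlk1 -0.36 to 0.079. The cause was not tested. In TPM 5 members did not overlap between the groups, against 9 in CPM and 8 in CPM with DESeq2 size factors, a comparison chosen after seeing the data. No paired analysis was possible because the library letters differ between the groups. Members under about 10 counts in the wild types are limited by depth.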

Other observations

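Several genes outside the 32 stood apart in mutants C or Q and were picked after their values were seen. Igf2, a fetal growth factor abundant in liver, measured 3.22 to 5.01 CPM in the wild types, 6.94 and 4.25 CPM in mutants C and D and 37.2 CPM in mutant Q, 8.75-fold above D. Rgn, a calcium-binding protein of hepatocytes, measured 2.31 and 3.41 CPM in C and Q against 0.398 to 0.621 CPM in the other 4 libraries. Ugt2b34, a glucuronosyltransferase, was 4.29-fold higher in Q than in D. Mutant C was the highest library for Fbp1, an enzyme of gluconeogenesis, at 19.1 CPM against 0.557 to 1.15 CPM in the other 5 libraries. It was also highest for the embryonic globin Hbb-y, at 21.7 CPM against 0.378 to 3.11 CPM, and for the macrophage complement gene C1qb, at 2.97 CPM against 0.477 to 0.717 CPM. By edgeR's test across all genes Fbp1, Hbb-y and C1qb had log2 differences of 3.20, 3.07 and 1.25, each with an adjusted p of 0.58.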
